A study of Mus musculus with 8 samples.

Results

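Iguratimod was compared with no treatment in wild-type mice with experimental autoimmune encephalomyelitis (EAE), the mouse model of multiple sclerosis. The comparison set 1 array of iguratimod-treated EAE against 1 array of untreated EAE, 2 of the 8 arrays of the study. A probe entered when its signal was well above background on 1 or both of these arrays, which held for 34593 of 56605 probes (61.1%). The probes stood for 22833 genes and unnamed transcripts, 17363 of them under a RefSeq name and 1940 of them intergenic noncoding regions. Each gene was represented by its brightest such probe.

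The study measured gene expression on single-colour Agilent arrays in RNA labelled as astrocytic, from the spinal cord of C57Bl/6J mice. Mice were wild type (WT) or labelled as Cx47-deficient. The groups used here were WT EAE with iguratimod and WT EAE without it, and, for comparison, Cx47-deficient EAE with iguratimod, Cx47-deficient EAE without it, and naive mice of both genotypes. The remaining groups were chronic EAE of both genotypes, on a slide of their own. The titles mark the WT mice as FL. The dose and timing of iguratimod, the way the cells were isolated and the number of animals behind an array are not given in the sources used here. Every group had 1 array, so there is no spread between replicates and no difference below was tested.

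Iguratimod is a small-molecule antirheumatic drug. It is known to lower prostaglandin and cytokine production and the activity of NF-kB, a transcription factor that switches on inflammatory genes, to inhibit the cytokine MIF, and to act on the aryl hydrocarbon receptor. In EAE, T cells and monocytes enter the spinal cord, interferon-gamma from the T cells induces chemokines and antigen presentation in resident cells, and astrocytes take on a reactive state marked by Gfap.

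Levels are log2 signals relative to the 75th percentile of their own array, so a level of 0 is a bright spot and not an absent one. A difference is the level with iguratimod minus the level without it, and 1.00 is a 2-fold difference. The arrays of the pair lay on the same slide and had near-equal 75th percentiles, 616 units of signal with iguratimod and 614 units without it. On the iguratimod array 61.1% of spots were well above background, and on the untreated array 59.9%, with none saturated. Over the 8 arrays this share ran between 59.7% and 72.0%. The 299 probes printed several times on each array gave a pooled SD of 0.060 for the difference between their spots, which is technical error only. Spike-in RNA added to each sample read 0.25 to 0.47 higher on the iguratimod array for the 7 of 10 spike-ins that were well above background. Scaling to them instead of to the 75th percentile moved the median difference of all genes to -0.33. With 1 array a side, precision is limited by the number of arrays.

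The 2 arrays were alike over most genes, with a median difference of 0.00, quartiles of -0.25 and 0.23, and a Pearson correlation of 0.980 over genes, which are not independent replicates. With iguratimod, 714 genes were 2-fold or more higher (3.13% of those compared) and 291 were 2-fold or more lower (1.27%). Of the 2-fold genes 71.0% were therefore higher, a share that was 86.2% after normexp background correction and 22.7% after spike-in scaling. Among the 10417 genes at or above the 75th percentile on either array, 159 were 2-fold higher (1.53%) and 49 were 2-fold lower (0.47%). Where a 2-fold gene had several probes, the probes mostly shared the sign of the difference. All probes were higher for 132 of 161 such genes on the higher side, and all were lower for 61 of 68 on the lower side. All probes passed 2-fold for 58 of the 161 and for 21 of the 68.

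The higher side held many genes with their lowest value on the untreated array. Of the 714 genes, 611 had their lowest level of the 6 arrays of that slide on the untreated WT EAE array (85.6%, against 18.4% of all genes), while 176 had their highest on the iguratimod array (24.6%, against 19.3%). On the lower side, 95 of 291 genes were lowest on the iguratimod array (32.6%, against 14.3%) and 113 were highest on the untreated array (38.8%, against 16.1%). Selecting genes by their difference favours such positions, so these counts describe the selected genes only.

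**Figure D1:**
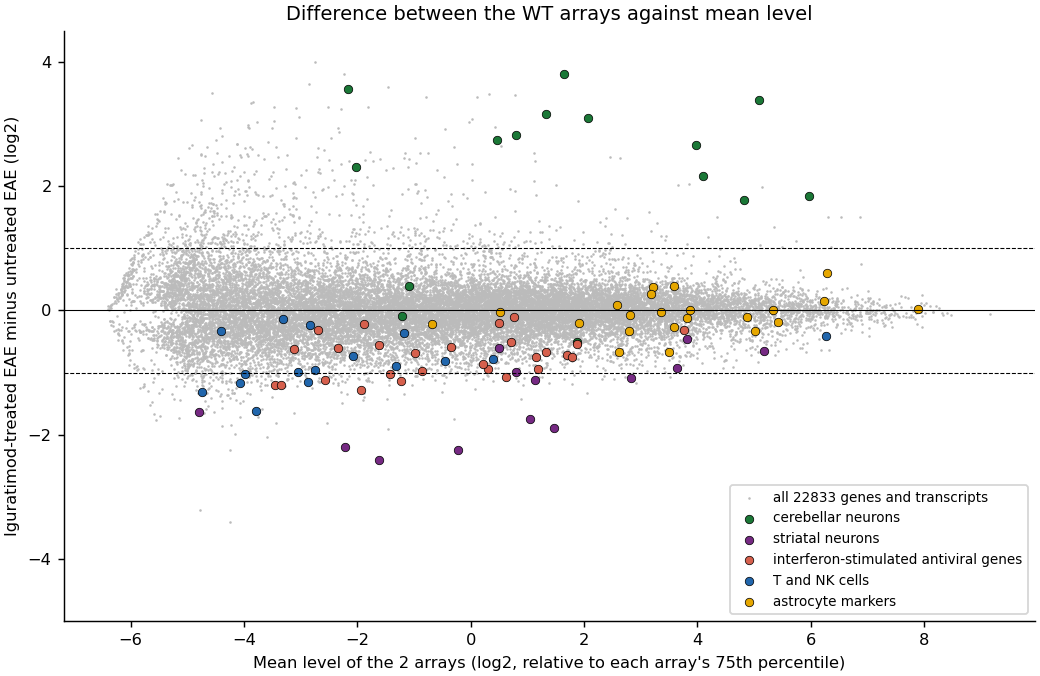
Difference between the iguratimod-treated and the untreated WT EAE array (log2, vertical axis) against the mean level of both arrays (log2, relative to the 75th percentile of each array), 1 point a gene, with 5 gene lists coloured and 2-fold marked by dashed lines. Most cerebellar genes lie above 1, striatal genes reach furthest below 0 of the coloured lists, the interferon-stimulated and T cell genes lie below 0, and the astrocyte markers lie between -0.66 and 0.60.

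Among genes of prostaglandin synthesis, MIF, NF-kB and the aryl hydrocarbon receptor, Cd74 and Bcl3 were 2-fold lower and the other measured genes were within 2-fold. Ptgs2, the inducible cyclooxygenase, had a level of -2.50 with iguratimod and -2.24 without it, a difference of -0.26. Of the 17 measured prostaglandin and leukotriene genes, 13 were below 0, 0 were 2-fold higher and 0 were 2-fold lower. Their median was -0.34, against 0.00 over all genes. The lowest were Tbxas1, thromboxane synthase, at -0.94, Alox5, which starts leukotriene synthesis, at -0.85, and Ptgis, prostacyclin synthase, at -0.67. The prostaglandin E synthases were near equal on both arrays or higher with iguratimod, with Ptges2 at -0.06, Ptges at 0.18 and Ptges3 at 0.32, and the probes of Ptges disagreed, since 1 of them was at -0.48. Ptgds, the prostaglandin D synthase of brain, had a level of 6.12 with iguratimod and 6.31 without it.

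Mif itself had a level of 5.60 with iguratimod and 5.45 without it, so the pair differed by 0.15. Its close relative Ddt was 0.45 higher. Cd74, the receptor of MIF and at the same time the invariant chain of MHC class II, was lower with iguratimod, at 2.18 against 3.26 without it, a 2.11-fold difference. The co-receptors Cxcr4 and Cd44 differed by -0.02 and -0.09, although a second probe of Cd44 was at -0.73.

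The NF-kB subunits Rela and Nfkb1 differed by -0.05 and -0.11, and the kinase subunits Ikbkb and Chuk by -0.11 and 0.18. The feedback targets of NF-kB in the list did not share a direction. Nfkbie, Nfkbiz and Nfkbia were at 0.67, 0.28 and 0.22, the ubiquitin-editing enzyme Tnfaip3 was at -0.02, and Bcl3 was at -1.01. Over the 18 measured genes of this list the median was -0.04, with 0 that were 2-fold higher and 1, Bcl3, 2-fold lower. Among 5 measured genes of the aryl hydrocarbon receptor, Cyp1b1 was at -0.55 and Ahr itself at -0.30, while the targets Nqo1 and Tiparp were at 0.50 and 0.40. Cyp1a1 and Cyp1a2, 2 classical targets of this receptor, were not well above background on either array.

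**Figure D2:**
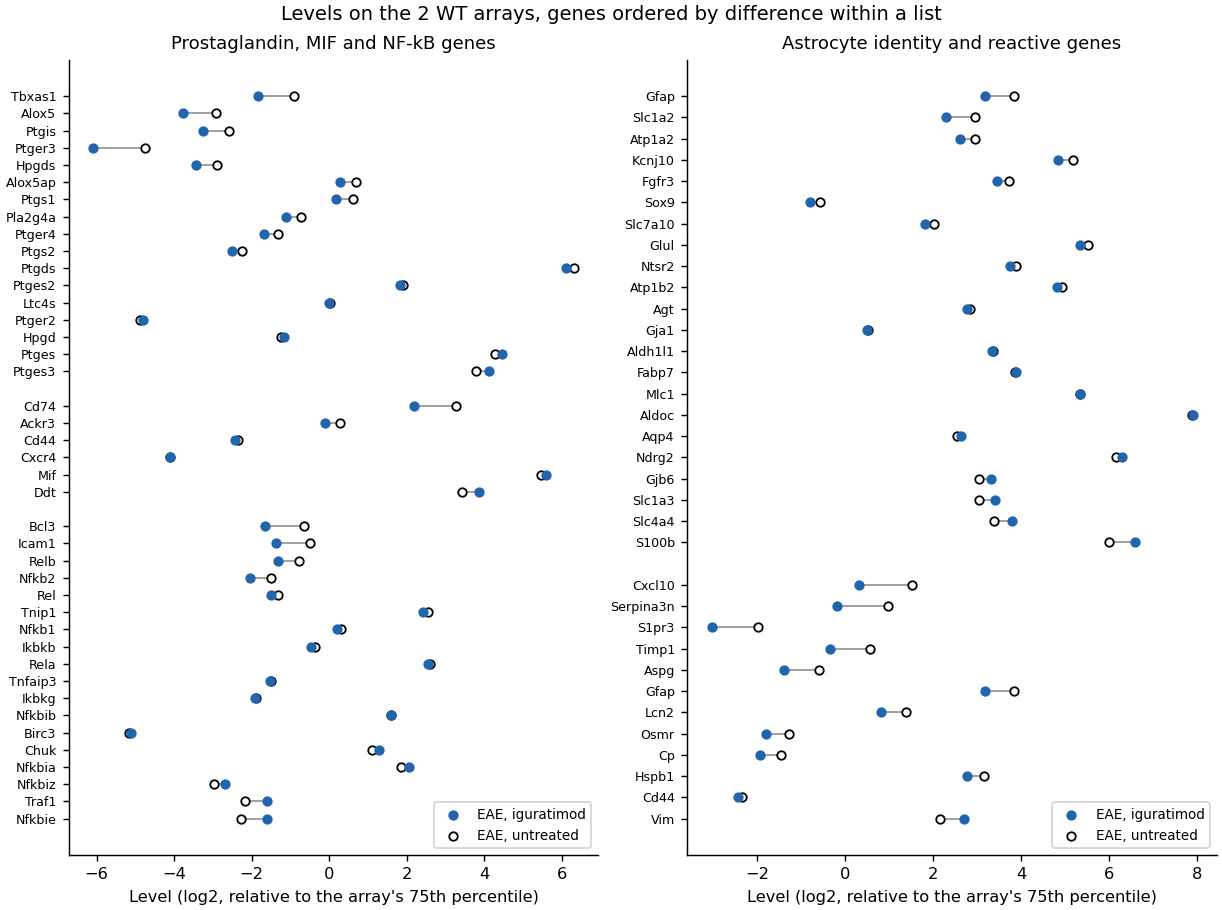
Levels on the iguratimod-treated (filled) and untreated (open) WT EAE arrays (log2, relative to the 75th percentile of each array), 1 row a gene and 1 array a group, for prostaglandin and leukotriene, MIF and NF-kB genes on the left and astrocyte identity and reactive genes on the right. Mif, Rela and Gja1 nearly coincide on both arrays, whereas Cd74, Bcl3, Cxcl10 and Serpina3n lie lower with iguratimod. Levels are drawn as measured, so dim values such as that of Ptger3 with iguratimod lie below the floor used for its difference.

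Inflammatory cytokines and chemokines formed the first group that lay mostly below 0. Il1b, the central cytokine of the inflammasome, had a level of -3.01 with iguratimod, -1.52 without it and -7.04 in naive WT. The treated level was the lower of the EAE pair and stood far above the naive one. Its difference was -1.49, and its second probe gave -1.20. Oncostatin M, an IL-6 family cytokine encoded by Osm, was at -1.36, Ifng, interferon-gamma, at -1.06 and Tnf at -0.60. Il12a, a subunit of IL-12, went the other way at 0.99. Of the 10 measured proinflammatory cytokines, 9 were below 0 and 3 were 2-fold lower, with a median of -0.35. Il6, Il17a, Il23a and Csf2 were not well above background on either array, so no difference can be given for them. The interleukin-1 receptor antagonist Il1rn, which opposes Il1b, was lower as well, at -4.33 with iguratimod against -2.52 without it, and Tgfb1 was at -1.01. Over the 7 measured anti-inflammatory cytokines the median was -0.13, with 3 above 0, 4 below 0 and 2 that were 2-fold lower.

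The receptors of the IL-6 family and the genes of STAT3 signalling and feedback were all below 0 by their brightest probe. Socs3, the feedback inhibitor that STAT3 induces, had a level of -0.74 with iguratimod and 0.25 without it, Il6ra was at -0.84 and Stat3 at -0.58. The median of the 11 genes was -0.52, with 0 that were 2-fold lower. The receptors Osmr and Cntfr are uncertain, since a second probe of each was above 0, at 0.57 and 0.87.

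Chemokines that interferon-gamma and NF-kB induce were lower with iguratimod and remained well above naive. Cxcl10, which attracts T cells through CXCR3, had a level of 0.32 with iguratimod, 1.52 without it and -5.42 in naive WT. Ccl2, which attracts monocytes, had -0.58 with iguratimod, 0.44 without it and -5.02 in naive WT. Ccl5, a chemokine of T cells and glia, had 1.20 with iguratimod, 2.11 without it and -4.15 in naive WT. The differences of these genes were -1.20, -1.03 and -0.90, each small beside the distance of either EAE array from naive. Cxcl9, another CXCR3 ligand, was at -1.11, and Ccl4, Ccl12 and Ccl7 were at -1.14, -1.13 and -1.07.

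Of the 10 measured CXC and CX3C chemokines, 10 were below 0 and 3 were 2-fold lower, with a median of -0.67. Of the 11 measured CC chemokines, 10 were below 0 and 4 were 2-fold lower, with a median of -0.90. Over all genes 49.7% were below 0. The homeostatic chemokine Cxcl12 was at -1.19 by its brightest probe and at -0.20 by the other. The exceptions were Ccl8 at -0.09, Ccl19 at 0.20 and Cxcl11 at -0.03. The probe of Cxcl11 read between 7.15 and 7.40 on each of the 6 arrays of the slide, naive ones included.

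Interferon-stimulated genes shared a direction. All 27 antiviral genes of this kind were measured, all 27 were below 0, and 7 were 2-fold lower, with a median of -0.71. The 7 were Oasl1, Ifi44, Mx1, Parp14, Rsad2, Oasl2 and Usp18. Mx1 had a level of -4.05 with iguratimod, -2.85 without it and -6.68 in naive WT. Rsad2, the antiviral enzyme viperin, had -3.14 with iguratimod, -2.02 without it and -5.55 in naive WT. The transcription factors that drive these genes were lower too, with Irf1 at -0.94 and Irf7 at -0.71, and Stat2 was the nearest to 0 at -0.11. The mean level of the list was -0.81 with iguratimod, -0.07 without it and -2.46 in naive WT, so the treated array lay between the others and nearer to untreated EAE.

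Many of these genes carry an interferon-stimulated response element, a DNA site through which interferons switch on transcription. In the 250 bases before the gene start, searched on both strands for GAAA, any 2 bases and GAAA, the element was found in 7 of the 18 antiviral genes present in the RefSeq promoter table (38.9%), in 9 of 10 interferon-gamma inducible GTPases (90.0%), and in 936 of all 27025 genes (3.46%). The other lists searched held the element in 2 of 8 CXC and CX3C chemokines, 2 of 14 MHC class I genes and 1 of 8 class II genes. It was found in 1 of 9 CC chemokines, 1 of 12 T and natural killer genes and 0 of 15 NF-kB genes. A site read by NF-kB was searched on both strands as GGGA, any 2 bases and TTCC. It was found in 3 of 8 CXC and CX3C chemokines (37.5%), 2 of 15 NF-kB genes (13.3%) and 1.36% of all genes. The site was also in 1 of 10 of these GTPases, 1 of 14 class I genes and 1 of 18 antiviral genes. It was in 0 of 9 CC chemokines, 0 of 8 class II genes and 0 of 12 T and natural killer genes. Overlap between the motifs was not examined, and a match describes the letters only. The 4 promoters below were chosen with the differences known, to show the element in 3 antiviral genes and in Cxcl10. They are the RefSeq sequences of GRCm38.p6, 5′ to 3′ on the strand of the gene, ending at the base before its start, with the element in capitals.
Cxcl10, chr5:92348890-92349139, minus strand: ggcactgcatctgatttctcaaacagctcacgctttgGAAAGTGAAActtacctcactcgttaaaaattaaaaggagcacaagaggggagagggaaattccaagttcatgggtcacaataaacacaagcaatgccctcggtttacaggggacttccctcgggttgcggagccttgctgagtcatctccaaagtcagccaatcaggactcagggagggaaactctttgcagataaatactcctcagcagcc
Rsad2, chr12:26456453-26456702, minus strand: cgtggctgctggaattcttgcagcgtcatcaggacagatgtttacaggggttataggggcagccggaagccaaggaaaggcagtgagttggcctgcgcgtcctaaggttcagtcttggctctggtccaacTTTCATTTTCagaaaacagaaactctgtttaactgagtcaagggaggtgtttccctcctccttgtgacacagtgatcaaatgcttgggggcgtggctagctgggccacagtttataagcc
Oas1a, chr5:120907526-120907775, minus strand: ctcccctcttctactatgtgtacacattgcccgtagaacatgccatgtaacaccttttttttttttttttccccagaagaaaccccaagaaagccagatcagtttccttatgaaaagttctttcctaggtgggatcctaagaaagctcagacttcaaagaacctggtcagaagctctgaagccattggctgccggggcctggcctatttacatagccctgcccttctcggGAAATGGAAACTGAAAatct
Isg15, chr4:156200819-156201068, minus strand: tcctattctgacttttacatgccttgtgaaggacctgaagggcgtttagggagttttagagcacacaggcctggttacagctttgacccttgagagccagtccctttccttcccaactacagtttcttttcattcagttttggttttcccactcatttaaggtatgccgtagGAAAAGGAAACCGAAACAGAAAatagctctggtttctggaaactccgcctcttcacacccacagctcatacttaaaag
The first matching site starts 213 bases before the start of Cxcl10, 120 bases before that of Rsad2, 20 bases before that of Oas1a and 78 bases before that of Isg15. Oas1a has 2 overlapping matches and Isg15 has 3. The differences of these 4 genes were -1.20, -1.12, -0.86 and -0.75, and those of the other antiviral genes with a match, Bst2, Ifit1, Ifit3 and Stat2, were -0.74, -0.56, -0.54 and -0.11.

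The GTPases that interferon-gamma induces for defence inside cells were mostly lower. Igtp had a level of 2.19 with iguratimod, 3.06 without it and -0.57 in naive WT. Gbp7, Gbp6 and Irgm2 were at -0.77, -0.70 and -0.69. Of the 13 measured, 10 were below 0, 0 were 2-fold lower, and the median was -0.64. The 3 exceptions, Gbp9, Gbp5 and Gbp4, were at 0.61, 0.45 and 0.22, and Gbp9 was about as bright in naive WT as in EAE, at 3.71. The brighter probe of Gbp5 was likewise at 0.55 in naive WT, whereas its second probe had -0.69 with iguratimod, -0.99 without it and -3.73 in naive WT, a difference of 0.30.

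Antigen presentation on MHC class II was lower with iguratimod. H2-Ab1, the beta chain of I-A, had a level of 2.99 with iguratimod, 4.06 without it and -1.24 in naive WT. Its 4 probes gave differences between -1.12 and -0.87. H2-Oa, Cd74 and H2-Eb1 were at -1.13, -1.08 and -0.99, and the loading factors H2-DMb1 and H2-DMa were at -0.97 and -0.91. Of the 12 measured genes, 9 were below 0, 3 were 2-fold lower and 1 was 2-fold higher, with a median of -0.88. The higher one was Ciita, the master activator of class II genes, whose probes disagreed. The brighter was at 1.28 and the other at -0.95. The costimulatory ligand Cd80 was at 0.84, and its partner Cd86 was at -0.62.

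MHC class I followed the same course. H2-K1 had a level of 4.07 with iguratimod, 4.88 without it and 2.04 in naive WT. The peptide transporter Tap1 was at -1.01, the activator Nlrc5 at -1.12 and the immunoproteasome subunits Psmb9 and Psmb8 at -0.67 and -0.62. Of the 16 measured genes, 15 were below 0 and 2 were 2-fold lower, with a median of -0.65. H2-Q4, another class I gene, was the exception at 1.02, with a level of 6.00 with iguratimod, 4.98 without it and 6.06 in naive WT.

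**Figure D3:**
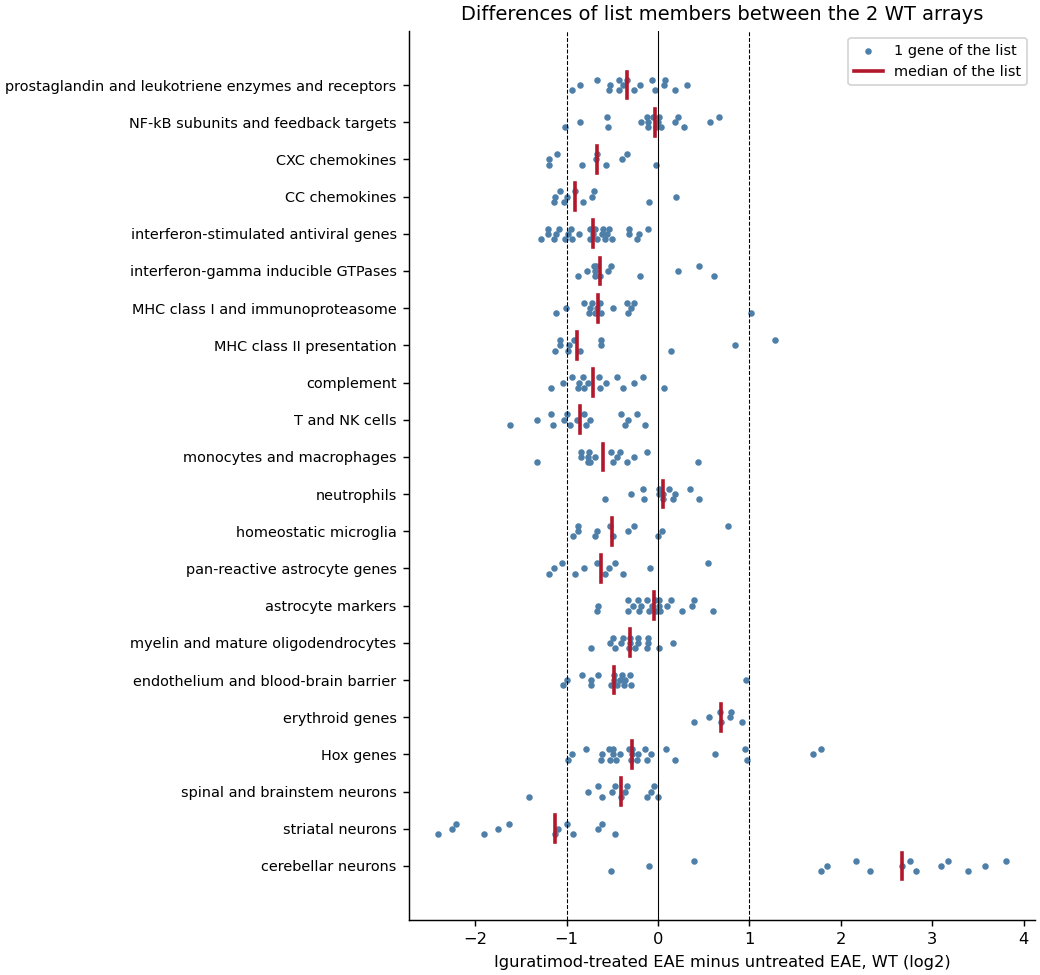
Differences between the iguratimod-treated and the untreated WT EAE array (log2, horizontal axis) for the measured members of 22 gene lists, 1 point a gene, with the median of each list as a red bar and 2-fold marked by dashed lines. CC chemokines have the lowest median of the immune lists at -0.90, astrocyte markers and NF-kB genes lie around 0, and cerebellar and striatal neuron lists stand at 2.67 and -1.12.

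Complement genes were lower with iguratimod. C4b had a level of 2.33 with iguratimod, 3.50 without it and 0.17 in naive WT. C3, on which all complement pathways converge, had 1.30 with iguratimod, 2.34 without it and -1.21 in naive WT. The chains of C1q, which microglia make, were at -0.86, -0.82 and -0.77 for C1qa, C1qc and C1qb. Of the 16 measured genes, 15 were below 0 and 2, C4b and C3, were 2-fold lower, with a median of -0.71.

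Markers of T and natural killer cells were mostly dim on both arrays and lower with iguratimod. Il2rb, an interleukin-2 receptor chain of activated T cells, had a level of -4.60 with iguratimod, -2.98 without it and -7.32 in naive WT, and its second probe gave a difference of -0.72. Cd2, an adhesion molecule of T cells, had -3.44 with iguratimod, -2.29 without it and -7.40 in naive WT. Gzmb, a granule protease of cytotoxic cells, was well above background on the untreated array only and was at least 2.49-fold lower with iguratimod. Icos and Cd3g were at -1.17 and -1.03. Of the 16 measured genes, 16 were below 0 and 5 were 2-fold lower, with a median of -0.85. Cd8a, Ctla4 and Foxp3 were not well above background on either array. In RNA from a mixture of cells, fewer T cells and less RNA per T cell cannot be told apart.

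Myeloid cells differed by type. Of the 16 measured monocyte and macrophage genes, 15 were below 0 and 1 was 2-fold lower, with a median of -0.60. That gene was Arg1, the arginase of alternatively activated macrophages, at -2.57 with iguratimod, -1.26 without it and -7.03 in naive WT. Fn1, Nos2 and Plac8 were at -0.85, -0.84 and -0.77. Itgax, the CD11c integrin of dendritic cells and activated microglia, had -2.62 with iguratimod, -1.18 without it and -5.87 in naive WT. The neutrophil list did not share this, with a median of 0.05, or -0.28 under spike-in scaling, and 4 of 13 genes below 0. S100a8 and S100a9 were at 0.16 and -0.16, and Ngp at 0.18, although all 3 were well above their naive level. Lcn2, which reactive astrocytes make too, was the lowest of that list at -0.58.

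Microglial genes were lower in both their resting and their activated set. Tmem119, a marker of resident microglia, had a level of 0.69 with iguratimod, 1.57 without it and 0.87 in naive WT. Csf1r was at -0.93, Cx3cr1 at -0.88 and P2ry12 at -0.53. The median of the 12 homeostatic genes was -0.51, and 0 of them were 2-fold lower. Of the 16 genes of disease-associated microglia, 14 were below 0 and 1, Itgax, was 2-fold lower, with a median of -0.44. Cst7, Clec7a and Trem2 were at -0.87, -0.80 and -0.80, and Apoe at -0.19. Lpl, at 0.82, is uncertain, because another of its probes was at -0.92.

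The sample label was checked against astrocyte markers, all 22 of which were well above background on both arrays. Markers of other cells were present as well, with all 17 myelin genes and all 17 general neuronal genes well above background on both arrays. Most genes of astrocyte identity differed little between the arrays. Aqp4, the water channel of astrocyte endfeet, had a level of 2.63 with iguratimod and 2.54 without it, and Aldh1l1 had 3.35 with iguratimod and 3.37 without it. The astrocyte connexins Gja1 and Gjb6 differed by -0.03 and 0.26. Of the 22 markers 13 were below 0, 0 were 2-fold different either way, and the median was -0.05, with Slc1a2, the main glutamate transporter, at -0.66 and S100b at 0.60.

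Genes of the reactive state were lower. Gfap, the intermediate filament of reactive astrocytes, had a level of 3.17 with iguratimod, 3.83 without it and 2.12 in naive WT. Its 2 probes gave differences of -0.66 and -0.74. Serpina3n, a protease inhibitor, was lower at -0.17 with iguratimod against 0.97 without it, and S1pr3 was at -1.05 and Timp1 at -0.91. Of the 12 measured genes induced in all reactive astrocytes, 11 were below 0 and 3 were 2-fold lower, with a median of -0.62, and the exception was Vim at 0.55. The 11 measured genes of the inflammatory A1 set had a median of -0.62, led by Ggta1, Srgn and H2-D1, of which H2-D1 also belongs to the class I list. The 8 measured genes of the A2 set ran between -1.13 for Tgm1 and 2.22 for B3gnt5. Several of these genes are also expressed by myeloid cells and endothelium, whose lists had medians of -0.60 and -0.48, and the part of those cells in the difference was not tested.

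Genes of neurons from other regions had the medians furthest from 0 among the 55 lists. Gabra6, a GABA-A receptor subunit of cerebellar granule cells with its probe at chr11:42120087-42120146 of mm9, had a level of 3.55 with iguratimod, -0.25 without it and 1.80 in naive WT, a 14.0-fold difference. Pcp2, a marker of cerebellar Purkinje cells, had 6.78 with iguratimod, 3.38 without it and 5.17 in naive WT. En2, Neurod1 and Car8 were at 3.17, 3.10 and 2.82. Of the 15 cerebellar genes, 12 were 2-fold higher and 0 were 2-fold lower, with a median of 2.67. Slc17a7 and Barhl1 were the members below 0, at -0.51 and -0.10, and the second probe of Barhl1 was at 1.52. The mean level of the list was 2.82 with iguratimod, 0.60 without it and 1.75 in naive WT, and between 1.51 and 3.29 on the Cx47-deficient arrays of the slide. The untreated WT array had the lowest level of the 6 for 13 of the 15 genes.

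Striatal genes ran the opposite way. Adora2a, the adenosine receptor of striatal neurons with its probe at chr10:74797461-74797520 of mm9, had a level of -2.83 with iguratimod, -0.42 without it and 0.46 in naive WT, a 5.31-fold difference. Drd1, the D1 dopamine receptor, had -1.34 with iguratimod, 0.91 without it and 1.57 in naive WT. Gpr6 and Rgs9 were at -2.20 and -1.90. Of the 13 striatal genes, 13 were below 0 and 8 were 2-fold lower, with a median of -1.12. Their mean level was 0.17 with iguratimod, 1.61 without it and 2.22 in naive WT, so the treated array was the lowest of the WT arrays of the slide. The Cx47-deficient naive array was lower still, at -0.23. Neither cerebellum nor striatum is part of the labelled tissue.

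**Figure D4:**
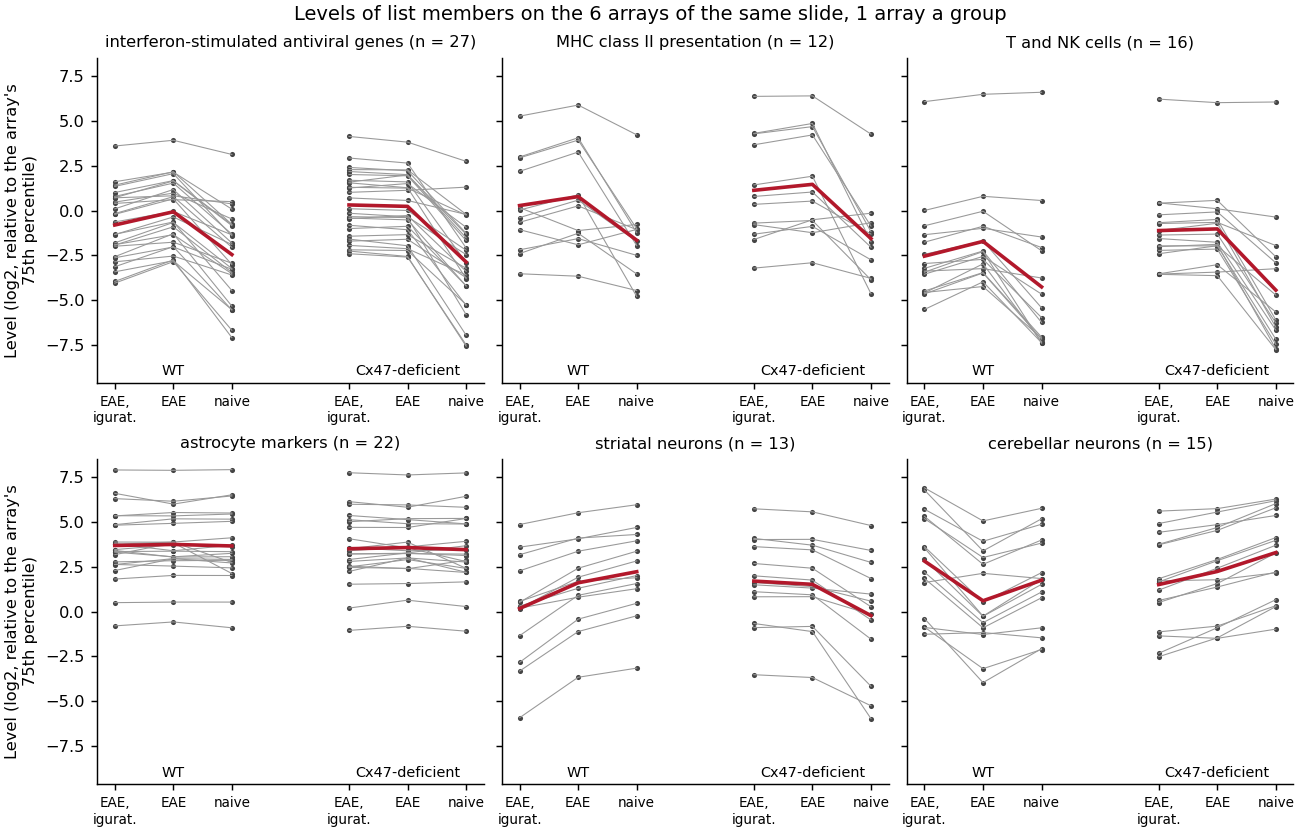
Levels (log2, relative to the 75th percentile of each array) of the measured members of 6 gene lists on the 6 arrays of the same slide, with 1 array for each of EAE with iguratimod, EAE and naive in WT on the left and in Cx47-deficient mice on the right, thin lines joining the points of a gene and the red line giving the mean of the list. In WT the interferon-stimulated, MHC class II and T cell lists are lower with iguratimod than in untreated EAE and above naive, astrocyte markers are level, and the cerebellar list is lowest on the untreated array.

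Other region and cell markers moved by less. Hox genes, which set position along the cord, had a median of -0.29 with 2 of 27 that were 2-fold higher, Hoxa10 at 1.78 and Hoxd9 at 1.69, while Hoxc5 and Hoxc8 were at -0.98 and -0.94. Of the 13 measured genes of spinal and brainstem neurons, 13 were below 0, with a median of -0.41. The acetylcholine-synthesising enzyme Chat was at -0.76 by its brighter probe and 0.24 by the other, and the glycine transporter Slc6a5 was at -0.66. Myelin genes had a median of -0.31, with Mag at -0.74 and Mbp at 0.01. Of 17 endothelial genes, 16 were below 0 with a median of -0.48, among them Vwf at -1.04 and Cldn5, a claudin of tight junctions, at -0.73. The 7 measured erythroid genes were all above 0 with a median of 0.69, and Hba-a1, an alpha globin, had 5.05 with iguratimod and 4.27 without it.

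These cell and region lists differed between the same 2 arrays as the immune, complement and reactive astrocyte lists. Their part in the immune differences was not tested, and with 1 array a group the treatment and the makeup of the dissected sample cannot be told apart.

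The genes named for the largest differences were mostly outside the immune lists. They had to be well above background on both arrays and 2-fold also after normexp and quantile normalization. On the higher side Sycp1, a protein of the meiotic synaptonemal complex, came first, with a level of -0.75 with iguratimod, -4.75 without it and -2.43 in naive WT. It was followed by Bcl2l15, Gabra6, Cpsf4l, Chil5, Cbln3, Ppp1r17, Crtam, Il20rb, Il22, Pcp2 and Nrk, with differences between 3.28 and 3.81. Some of these have immune names and ran against the immune lists. Il22, a T cell cytokine, had 1.82 with iguratimod, -1.61 without it and 0.36 in naive WT, and Crtam, a receptor of cytotoxic lymphocytes, had 2.51 with iguratimod, -0.96 without it and 0.69 in naive WT. Both were higher in naive WT than in untreated EAE, as were the cerebellar genes Gabra6, Cbln3, Ppp1r17 and Pcp2 of the same group. Iltifb, a near-identical copy of Il22, was not well above background without iguratimod and was at least 11.4-fold higher with it, and the probes of the 2 genes may share RNA.

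On the lower side 5 of the 12 largest were striatal, among them Adora2a, Drd1, Gpr6 and Rgs9. Serpina9 and Lrrc10b, like these, were lowest with iguratimod and highest in naive WT among these WT arrays, the naive levels being 0.13 and 1.51. Ido1, which breaks down tryptophan, was at -3.44 with iguratimod, -1.62 without it and -0.48 in naive WT, so it too was highest in naive. The immune genes of this group were Itgax, Slc11a1, a metal transporter of macrophage phagosomes at -1.43, and Lag3, an inhibitory receptor of activated T cells at -1.39. Slc16a3, a lactate exporter, was at -1.34. The rule for this group left out other immune genes that were further below 0 than Itgax. Among them were Il1rn at -1.81, Il2rb at -1.62 and Il1b at -1.49. Il1b stood at -0.93 after normexp.

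Among genes well above background on only 1 array of the pair, the largest bounds after Iltifb on the higher side were Gm13944, Prl2c5, Corin, Cabp2, Slc9a3, Gm16505 and Cpb2, at least 7.64-fold to 10.1-fold higher. On the lower side Bpifa2, a secretory protein of the parotid gland, was at least 10.6-fold lower with iguratimod and Olfr655, an olfactory receptor, at least 9.25-fold lower. Both were well above background on the untreated WT array and on none of the other 7 arrays of the study, and the same held for Smr3a, at least 3.41-fold lower. Ripk3, a kinase of necroptosis, was at least 3.60-fold lower and was also well above background on both Cx47-deficient EAE arrays.

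Of the 1940 intergenic noncoding regions, 92 were 2-fold higher (4.74%, against 3.13% of all genes), and 15 were 2-fold lower (0.773%, against 1.27%), with a median of 0.01. In the Cx47-deficient pair 5 of the same regions were 2-fold higher (0.258%, against 0.245% of all genes compared in WT) and 121 were 2-fold lower (6.24%, against 3.19%). Subunits of the mitochondrial NADH dehydrogenase were higher by small steps, with 44 of 46 above 0 and a median of 0.20. The 18 measured genes chosen from the whole respiratory chain were all above 0, with a median of 0.17. That median turned to -0.17 under spike-in scaling, which moved the median of all genes to -0.33. The NADH dehydrogenase median is given under the main scaling only. Of 19 cell cycle genes, 15 were below 0 and 2, Top2a and Plk1, were 2-fold lower, with a median of -0.56. Cholesterol synthesis and export genes had a median of -0.31, with 20 of 21 below 0, among them Sqle at -0.67.

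The same treatment was applied in Cx47-deficient mice, and that pair shares no array with the WT pair but lies on the same slide. There 79 of 24024 genes were 2-fold higher with iguratimod (0.329%) and 859 were 2-fold lower (3.58%), so 8.42% of 2-fold genes were higher, a share that was 27.4% after median centring, 26.6% after quantile normalization, 20.1% after loess, 25.7% in the authors' processed values and 1.3% after spike-in scaling. Of the 714 genes that were 2-fold higher in WT, 283 were 2-fold lower in Cx47-deficient mice (39.6%, against 3.19% of all genes compared). Of the same genes 1, Scgn, was 2-fold higher there (0.14%, against 0.245%). The median difference of the 714 genes there was -0.77. Of the 291 genes 2-fold lower in WT, 11 were 2-fold lower in Cx47-deficient mice (3.78%), near the 3.19% of all genes compared. Another 5 were 2-fold higher (1.72%, against 0.245%). Over all genes the differences of the pairs had a Pearson correlation of -0.39, given as a description over genes of 4 arrays on 1 slide. The difference between the pairs was not tested.

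Several immune lists had medians nearer to 0 in Cx47-deficient mice. The medians in Cx47-deficient mice are given under the main scaling only. The interferon-stimulated antiviral list had a median of -0.71 in WT and 0.10 in Cx47-deficient mice, and T and natural killer genes had -0.85 in WT and -0.09 in Cx47-deficient mice. Cxcl10 was at -1.20 in WT and -0.67 in Cx47-deficient mice, and Il1b was at -1.49 in WT and -0.32 in Cx47-deficient mice. Reactive astrocyte genes lay below 0 in both, with medians of -0.62 in WT and -0.67 in Cx47-deficient mice, and endothelial genes had -0.48 in WT and -0.83 in Cx47-deficient mice. Neutrophil genes had 0.05 in WT and -1.26 in Cx47-deficient mice. Genes 2-fold lower in both pairs were led by Myoc, Foxf2, Smpdl3b, Vwf and Adh1. Foxf2, Smpdl3b and Adh1 were dim, and not well above background on the Cx47-deficient iguratimod array. After normexp their WT differences were -0.32, -0.30 and -0.35, against -0.85 for Myoc and -0.95 for Vwf. The second probe of Adh1 was at -0.21 in WT and -0.04 in Cx47-deficient mice. Scgn, a calcium-binding protein, was 1.11 higher in WT and 1.26 higher in Cx47-deficient mice. The genes with the most opposed differences were Ssty1, a Y-linked gene with several copies, Gm16505, Dsg1c, Oxct2b, Adamtsl3 and Cpb2, which were at 2.50 to 2.94 in WT and at -3.13 to -2.30 in Cx47-deficient mice. All 6 were well above background on 1 array of the WT pair only, so the WT values are bounds, as is that of Smpdl3b. The probes of Ssty1 disagreed in size, and the second was at 0.30 in WT and -0.89 in Cx47-deficient mice.

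**Figure D5:**
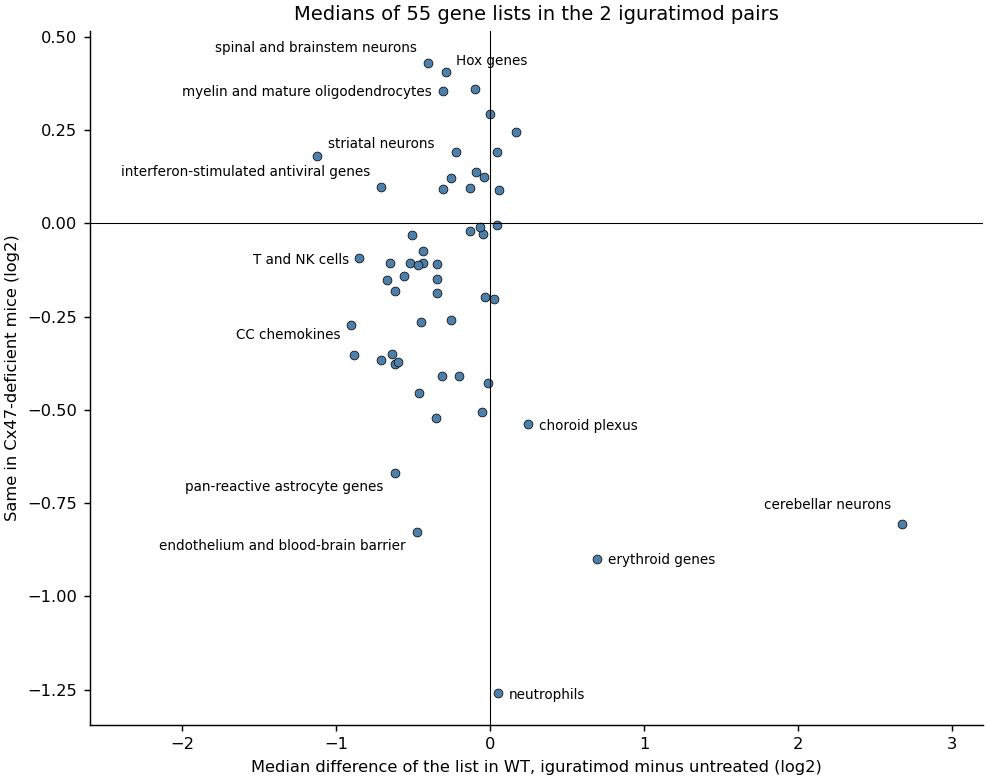
Median difference of 55 gene lists (log2, iguratimod-treated minus untreated EAE), with WT on the horizontal axis and Cx47-deficient mice on the vertical axis, 1 point a list and 1 array a group. Cerebellar and erythroid genes lie to the right of 0 and below it, neutrophil genes lie lowest at -1.26 in Cx47-deficient mice, and interferon-stimulated genes lie at -0.71 in WT and 0.10 in Cx47-deficient mice.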

How the data were processed

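RNA labelled as astrocytic was hybridised to 8 single-colour arrays, 1 a group. Spot intensity was read from the deposited scanner files, made with Agilent Feature Extraction 10.7.1.1, per the file headers, while the submitters' processing notes give 9.5.1.1. The processed signal had background subtracted by that software, per the file headers, and probe positions are on mm9. The authors' deposited table of processed intensity values served as an alternative. The number of value columns left without a sample was 0.

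The processed signal was put on the log2 scale and the 75th percentile over the 59305 spots of an array that are not controls was subtracted. Spots marked as outliers (59 on the iguratimod-treated and 54 on the untreated WT array) were left out and spots of a probe were averaged. A probe well above background on 1 or both arrays of the pair was kept, and a value not well above background was raised to the lowest level well above it, -5.30 with iguratimod and -5.26 without it, when that was higher, so such ratios are bounds. A gene was represented by the kept probe with the highest mean level over the 8 arrays. Of 56605 probes, RefSeq's gene table named 33898 by accession, 9462 by symbol and 487 by synonym, while 12758 kept the array's own name, which can be old. Counts are of genes past 2-fold, with no test. Normexp background correction used limma 3.58.1 in R 4.3.3 with an offset of 50, and the other steps used Python 3.11.15 with pandas 2.3.3.

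The comparison, its members and the 55 gene lists were chosen with earlier results of these data known. Genes were named by a rule: the 12 largest differences a side among RefSeq-named genes well above background on both arrays and 2-fold also after normexp and after quantile normalization, the 8 largest bounds a side, up to 5 members of a list with others shown for their role, genes of the known action of the drug, and up to 6 genes a side for the contrast with Cx47-deficient mice. The alternatives were normexp, quantile normalization, median centring, loess, the authors' values, stricter and no filters on dim probes, the mean of the probes, 3-fold and spike-in scaling. The number of arrays limits the precision, and p-values were not computed. Counting was checked on simulated differences. A few genes that the rule names are not reported here.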

Additional observations from a re-analysis of the deposited data

Results flagged for a closer look

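The medians of 5 gene lists had opposite signs in the WT and the Cx47-deficient pair and a size of at least 0.25 in both. Other lists with opposite signs had a smaller median in at least 1 pair. Among them were striatal genes (-1.12 in WT, 0.18 in Cx47-deficient mice) and interferon-stimulated antiviral genes (-0.71 in WT, 0.10 in Cx47-deficient mice). The myelin and mature oligodendrocyte genes had a median difference of -0.31 in WT and 0.36 in Cx47-deficient mice. The cerebellar neuron genes had 2.67 in WT and -0.81 in Cx47-deficient mice. The spinal and brainstem neuron genes had -0.41 in WT and 0.43 in Cx47-deficient mice. The erythroid genes had 0.69 in WT and -0.90 in Cx47-deficient mice. The Hox genes had -0.29 in WT and 0.41 in Cx47-deficient mice. Each difference is 1 iguratimod-treated array minus 1 untreated array, and the difference between the pairs was not tested. The medians in Cx47-deficient mice are those under the main scaling only.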

How the results depend on the processing

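With 1 array a group, no difference has a replicate error, and dim probes limit what can be seen. No paired analysis was possible because each group has 1 array and the labels carry no replicate numbers. No list median changed its sign among the results read first. Counts of genes have no sign, but the share of 2-fold genes that were higher in WT went from 71.0% to 22.7% under spike-in scaling. Of 495 values of 55 list medians under the alternatives, 97 moved by more than their margin. In 9 lists 11 values changed sign, 4 of them in 3 lists without spike-in scaling. Of 6722 values of 751 single-gene differences, 1482 moved and 239, in 163 genes, changed sign. Without spike-in scaling 113 changed sign, in 62 genes. The largest main difference that changed sign was 0.82 in size. Spike-in scaling was chosen after seeing the data. The 714 genes higher in WT became 249 after normexp, 473 when both arrays had to be well above background, 392 after spike-in scaling and 275 at 3-fold, and the 291 lower became 40 after normexp, 1338 after spike-in scaling and 28 at 3-fold. In Cx47-deficient mice the 79 higher became 9 (normexp), 195 (quantile), 204 (median), 161 (loess), 179 (authors' values), 49 (both arrays), 23 (spike-in) and 11 (3-fold), and the 859 lower became 162 (normexp), 537 (quantile), 540 (median), 517 (authors' values), 554 (both arrays), 1740 (spike-in) and 258 (3-fold). Normexp brought the medians in WT to -0.33 (CXC chemokines), -0.67 (CC chemokines), -0.78 (MHC class II), -0.47 (complement), -0.55 (interferon-stimulated genes), -0.47 (T and natural killer cells) and 2.35 (cerebellar neurons). Spike-in scaling brought them to -1.004 (CXC chemokines), -1.24 (CC chemokines), -1.22 (MHC class II), -0.98 (MHC class I), -1.04 (complement), -1.04 (interferon-stimulated genes), -0.38 (astrocyte markers), -1.18 (T and natural killer cells), -1.46 (striatal neurons) and 2.34 (cerebellar neurons), beside -0.33 for all genes. The cerebellar median was also 2.54 after quantile normalization, 2.54 in the authors' values and 2.39 with the mean of the probes. The causes were not tested.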

Other observations

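Several lists outside the comparison of immune and region markers were near 0 in WT. The 20 ribosomal protein genes had a median of 0.04, or -0.29 under spike-in scaling, the 13 genes of the unfolded protein response -0.04 and the 12 heat shock genes 0.00, with none of the members 2-fold different. Genes of the choroid plexus had a median of 0.25 with 9 of 12 above 0. That median turned to -0.08 under spike-in scaling, beside -0.33 for all genes. Otx2 was 2.03 higher, while Ttr, transthyretin, had a level of 5.11 with iguratimod and 4.92 without it. Among leukocyte adhesion genes Itgb2 was at -1.21 and Icam1 at -0.86, whereas Madcam1 was at 1.52. Tdo2, an enzyme of the kynurenine pathway like Ido1, was 1.99 higher, at -1.93 with iguratimod against -3.92 without it. Both arrays had the Y-linked genes Ddx3y, Uty, Eif2s3y and Kdm5d well above background and Xist below that mark.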
